A study of Mus musculus with 9 samples.

Results

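The genes described here are the fibroblast growth factor (FGF) ligand genes Fgf4, Fgf17, Fgf15 and Fgf8, the FGF receptor kinase genes Fgfr1, Fgfr2, Fgfr3 and Fgfr4, and Fgfrl1, which encodes a receptor without a kinase domain. They were chosen by name. They are 9 of the 38940 genes in the expression table, and 4 of them (Fgf4, Fgf17, Fgfr1 and Fgfrl1) reached the level needed for testing, a mean of at least 1 FPKM (fragments per kilobase, scaled for sequencing depth) over all libraries. RNA-seq was done on mouse embryonic stem cells in 3 groups of 3 libraries. Double KO cells were Yap ∆/∆ Taz ∆/∆, Taz KO cells were Yap f/f Taz ∆/∆ and control cells were Yap f/f Taz f/f, by the sample descriptions. Yap and Taz are the transcriptional co-activators of the Hippo pathway, and ∆ stands for the deleted and f for the floxed allele. The genotype field gives the double KO libraries the Taz KO genotype, so the groups follow the titles and descriptions. Per the labels' protocols a CreERT2 transgene was carried into the cells on a piggyBac transposon, and 500 nM 4-OHT was used to start recombination. Whether the control cells received 4-OHT, and whether each group was 1 clone, is not given in the sources used here. The growth medium was N2B27 with Lif at 4 ng/ml, 3 µM of the GSK3 inhibitor CHIR99021 and 0.4 µM of the MEK inhibitor PD0325901, on fibronectin.

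Embryonic stem cells secrete FGF4, which binds FGF receptors with heparan sulfate as a co-receptor and signals through RAS, RAF, MEK and ERK. This autocrine loop is known for moving stem cells out of the naive state and, in the blastocyst, for directing inner cell mass cells to primitive endoderm. The MEK inhibitor in the medium acts below the receptors, so these cells were grown with the lower part of the pathway inhibited. YAP and TAZ have no DNA-binding domain and reach their target genes through TEAD factors.

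Recovered depth was 18.7 to 23.5 M reads per library. Yap1 was at 4.25 ± 0.334 FPKM in double KO cells, 18.3 ± 0.346 in Taz KO cells and 18.4 ± 0.573 in control cells (SD, n = 3 each). Wwtr1, which encodes TAZ, was at 13.9 ± 0.772, 10.8 ± 1.58 and 12.1 ± 0.847 FPKM in the same groups, and a whole-gene value cannot show the loss of an exon. All 10 stem cell markers listed were present, with summed levels of 1679 to 1763 FPKM in double KO, 1890 to 2008 in Taz KO and 1907 to 2033 in control libraries. Of 8 fibroblast genes Dcn, Lum and Postn were at 0 in all libraries, while 2 averaged at least 1 FPKM in every group. The summed level of the 8 was 16.9 to 37.7 FPKM in double KO, 13.4 to 36.6 in Taz KO and 21.4 to 39.5 in control libraries. In every group the library numbered 2 differed most from the other 2. The chi-square of recovered reads per gene was 5.88 to 14.7 between libraries 1 and 3 of a group, and 39.2 to 101 between library 2 and either of them. Differences of Fgfr1, Fgfrl1, Fgfr3 and Fgfr4 are therefore also given without double KO library 2.

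The promoters of Fgf4 and Fgfrl1 are printed because these genes moved in opposite directions in double KO cells. Each is the 250 bases before the RefSeq start on GRCm38.p6, 5′ to 3′ on the gene's strand, at chr7:144861136-144861385 (plus strand) for Fgf4 and chr5:108693979-108694228 (plus strand) for Fgfrl1. Both lie inside the longer GENCODE gene model and in none of its exons. Capitals mark the GC box (GGGCGG) and the CCAAT box (CCAAT, here on the other strand as ATTGG).
Fgf4: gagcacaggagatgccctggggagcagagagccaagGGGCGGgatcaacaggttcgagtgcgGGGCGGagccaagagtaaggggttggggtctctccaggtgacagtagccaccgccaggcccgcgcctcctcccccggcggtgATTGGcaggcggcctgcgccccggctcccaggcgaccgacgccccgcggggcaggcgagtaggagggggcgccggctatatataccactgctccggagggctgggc
Fgfrl1: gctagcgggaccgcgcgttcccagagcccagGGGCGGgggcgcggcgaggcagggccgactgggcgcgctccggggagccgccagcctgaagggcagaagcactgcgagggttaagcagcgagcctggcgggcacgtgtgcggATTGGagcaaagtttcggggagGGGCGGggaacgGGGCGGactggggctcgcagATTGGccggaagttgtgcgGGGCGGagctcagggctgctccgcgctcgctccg
The Fgf4 window was 71.2% G or C and held 2 GC boxes and 1 CCAAT box. The Fgfrl1 window was 73.6% G or C and held 4 GC boxes and 2 CCAAT boxes, against a median of 52.4% over 32851 RefSeq promoter windows of this length. Both motifs are common: 32.7% of all windows held a GC box and 33.8% a CCAAT box, on either strand. The other motifs searched on both strands were TATAAA (in 12.4% of windows), the TEAD core GGAATG (12.6%) and the AP-1 site TGANTCA (6.75%), and none of these letters was in either printed window. None of these motif sequences overlapped another in the printed windows. Of the 9 genes, 5 had a promoter entry. The windows of Fgfr3 and Fgfr4 held GC boxes and that of Fgfr2 (44% G or C) held none of the motifs.

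The abundance of the 9 genes spanned the range of detected genes. Averaged over the 9 libraries, Fgf4 stood at the 97.6th percentile of the 24621 detected genes, Fgfr1 at 81.3, Fgf17 at 72.1 and Fgfrl1 at 65.0. The genes below the level tested were Fgfr4 at percentile 51.0, Fgfr3 at 46.8, Fgf15 at 42.7, Fgf8 at 33.9 and Fgfr2 at 32.8. In bulk libraries a lower value can come from fewer cells that express a gene or from less RNA in each cell, and these cannot be told apart. No 75-base run of transcript sequence was shared between any pair of the 9 genes. Gm16159 overlaps 164 exonic bases of Fgfr1 on the opposite strand, and Ctbp2 overlaps 314 of Fgfr2 on the same strand.

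**Figure D1:**
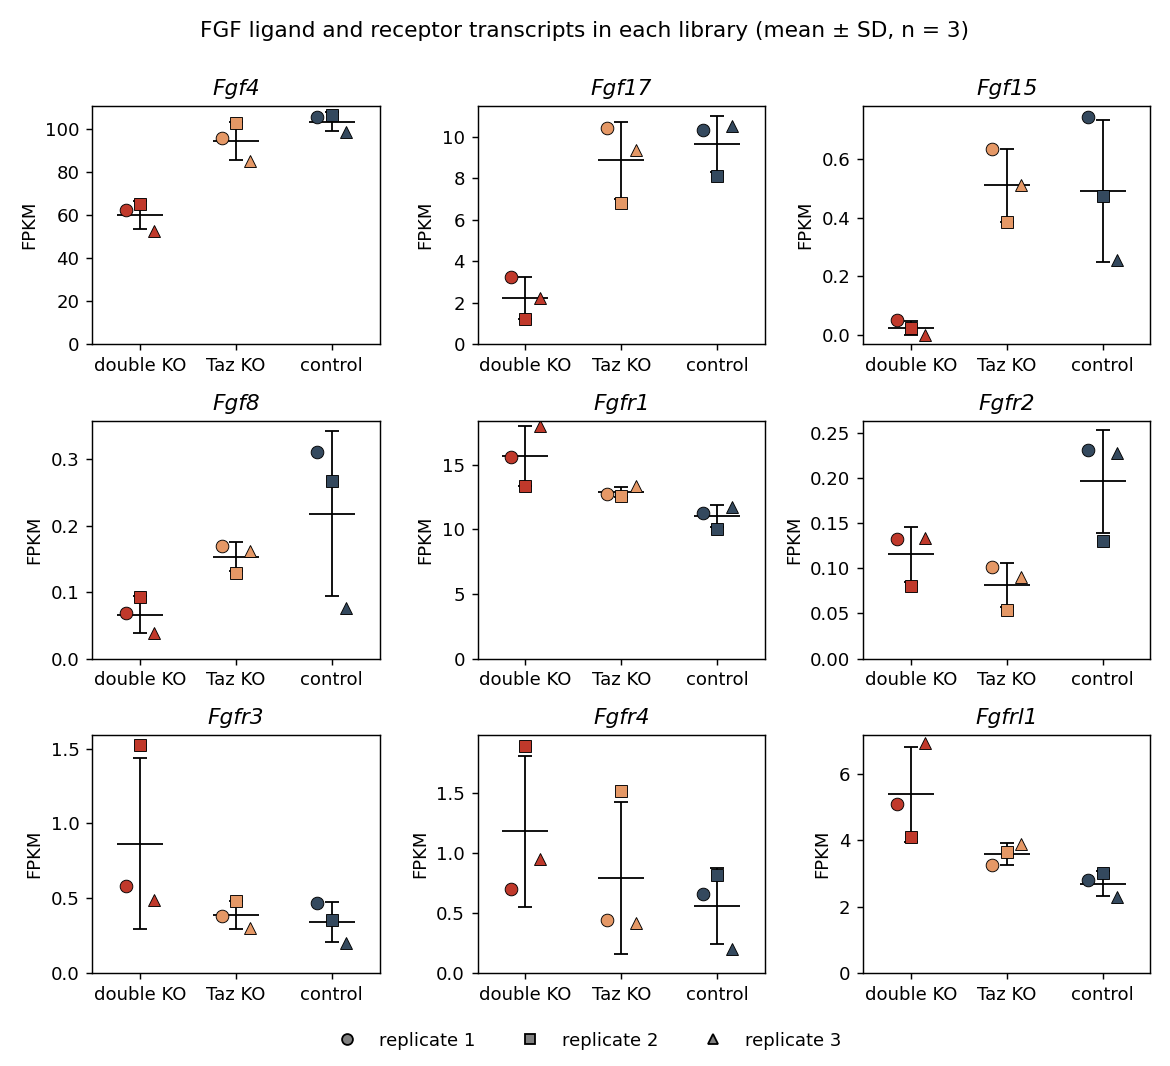
FPKM of each FGF ligand and receptor gene (vertical axis, own scale per panel) in double KO, Taz KO and control libraries; symbols mark replicates 1, 2 and 3, the horizontal line is the mean and the bar the SD (n = 3). Fgf4, Fgf17 and Fgf15 are lowest in all 3 double KO libraries, Fgfrl1 is highest there, and Fgfr4 is highest in library 2 of every group.

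Fgf4, the main FGF of embryonic stem cells, fell in double KO cells to 57.9% of control and 63.4% of Taz KO. The gene (ENSMUSG00000050917; chromosome 7, 144847367 to 144865243, plus strand, GRCm38) was at 62.5, 64.9 and 52.6 FPKM in double KO libraries 1, 2 and 3. Taz KO libraries had 95.9, 103 and 85.2 FPKM and control libraries 106, 106 and 98.5 FPKM. All double KO values lay below all others, while the Taz KO and control ranges overlapped. The mean was 60.0 ± 6.54 in double KO, 94.7 ± 8.88 in Taz KO and 104 ± 4.36 FPKM in control cells (SD, n = 3 each), from 3125 to 7633 reads per library. The log2 fold change was -0.79 against control (SE 0.103, limma adjusted p = 0.00133) and -0.66 against Taz KO (SE 0.103, adjusted p = 0.00635). With quantile normalization the difference from control was -0.60 (adjusted p = 0.0226) and that from Taz KO -0.48 (adjusted p = 0.0744). Scaling the columns to the same total FPKM gave -0.71 against control (adjusted p = 0.00502). Without these scalings Taz KO and control differed by -0.13 (95% interval -0.37 to 0.10, adjusted p = 0.752).

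Fgf17, a ligand of the same subfamily as Fgf8, had the largest fall of the 4 tested genes on the log2 scale, to 22.9% of control. It lies on chromosome 14 (ENSMUSG00000022101; 70636203 to 70642268, minus strand) and was at 3.23, 1.19 and 2.21 FPKM in double KO libraries. In Taz KO libraries it was at 10.45, 6.83 and 9.35 FPKM and in control libraries at 10.3, 8.10 and 10.53 FPKM. The highest double KO library was below the lowest library of either other group. Its reads numbered 48 to 119 in double KO, 265 to 385 in Taz KO and 303 to 415 in control libraries, so counting error is a larger part of its spread than for Fgf4. The log2 fold change was -1.97 against control (SE 0.271, adjusted p = 0.00161) and -1.85 against Taz KO (SE 0.271, adjusted p = 0.00494). Taz KO and control differed by -0.13, with a 95% interval of -0.74 to 0.49 and an adjusted p of 0.952.

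Fgf15, which in the adult mouse is an intestinal hormone acting on bile acid synthesis, lies 31.3 kb beyond Fgf4 on the same strand (chromosome 7, 144896531 to 144900953). Its level was low throughout, at 0.0507, 0.0231 and 0 FPKM in double KO libraries, 0.633, 0.385 and 0.511 in Taz KO libraries and 0.742, 0.474 and 0.256 FPKM in control libraries. These were 2, 1 and 0 reads in double KO, 25, 16 and 17 in Taz KO and 32, 19 and 9 in control libraries. A count of 0 in double KO library 3 allows up to 0.0845 FPKM, the value of 3 reads there. The summed level in double KO cells was 0.0500 of control (95% counting interval 0.0100 to 0.153) and 0.0500 of Taz KO (0.0100 to 0.154). Taz KO against control gave 1.00 (0.685 to 1.46), and intervals and limits of this kind cover counting error only. Fgf15 did not reach the level tested. With no filter on low values limma gave -0.89 against control (adjusted p = 0.0176) and -0.94 against Taz KO (adjusted p = 0.0263), where 10.8% and 5.14% of the 24621 detected genes passed in those comparisons. The antisense genes Gm26793 and Gm39119 overlap 787 exonic bases of Fgf15, and the strand setting of the counting is not given in the sources used here, so some of its reads may belong to them.

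Fgf8, a morphogen of gastrulation and brain patterning, was near the limit of detection, with 2, 3 and 1 reads in double KO, 5, 4 and 4 in Taz KO and 10, 8 and 2 in control libraries. The values were 0.0679, 0.0928 and 0.0378 FPKM in double KO, 0.170, 0.129 and 0.161 in Taz KO and 0.311, 0.267 and 0.0763 in control cells. All double KO values lay below all Taz KO values, as for 16.5% of tested genes. That share was not computed for genes below the level tested, such as Fgf8. The double KO to Taz KO ratio was 0.446 with a 95% counting interval of 0.139 to 1.26. Limma without a filter gave an adjusted p of 0.413 for that comparison. Double KO and control overlapped, since control library 3 had 2 reads. The double KO to control ratio was 0.30 with a 95% counting interval of 0.0986 to 0.775, while limma without a filter, which uses the spread between libraries, gave an adjusted p of 0.132. Fgf4 made up 94.9 to 98.03% of the summed FPKM of the 4 ligand genes in double KO, 89.5 to 93.3% in Taz KO and 90.1 to 92.3% in control libraries. The sum itself was 54.8 to 66.2 FPKM in double KO, 95.3 to 110.2 in Taz KO and 109 to 117 in control libraries.

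Fgfr1, the receptor that carries most FGF signalling in embryonic stem cells, was higher in double KO cells, at 142% of control. It was at 15.6, 13.3 and 18.0 FPKM in double KO, 12.7, 12.6 and 13.3 in Taz KO and 11.3, 10.1 and 11.7 FPKM in control libraries (ENSMUSG00000031565; chromosome 8, 25513654 to 25575718, plus strand). Control libraries lay below all Taz KO and double KO libraries, and double KO library 2 lay within the Taz KO range. Means were 15.7 ± 2.33, 12.9 ± 0.396 and 11.03 ± 0.859 FPKM in double KO, Taz KO and control cells (SD, n = 3 each), from 1811 to 2869 reads. The log2 fold change of double KO against control was 0.48 (SE 0.109, adjusted p = 0.0138). Taz KO against control was 0.22 (95% interval -0.03 to 0.47, adjusted p = 0.475). Double KO against Taz KO was 0.26 (0.01 to 0.51, adjusted p = 0.144), where adding the replicate number to the model as a block gave an adjusted p of 0.0177. Without double KO library 2 that difference was 0.37 (adjusted p = 0.0404), and without the 3 libraries numbered 2 it was 0.35 (adjusted p = 0.0182).

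Fgfr1 lies on a chromosome whose genes were higher as a whole in both knockout groups. The 671 tested genes of chromosome 8 had a median log2 fold change of 0.30 in double KO against control and 0.35 in Taz KO against control, where the medians over all tested genes were -0.02 and 0.01. For double KO against control 36.7% of chromosome 8 genes rose and 3.28% fell. With every gene centred on the median of its chromosome in each library, Fgfr1 was 0.17 higher in double KO than in control (SE 0.0803, adjusted p = 0.150). The same centring gave -0.12 for Taz KO against control (adjusted p = 0.773). Between double KO and Taz KO, which share the chromosome-wide difference (median -0.03), the centred difference was 0.29 (adjusted p = 0.0417). Both knockout groups carry the chromosome 8 difference, so for Fgfr1 it cannot be told apart from the knockouts in the comparisons with control. Fgf17 moved against its chromosome, since the 398 tested genes of chromosome 14 had a median of 0.11 in double KO against control, and after centring it was at -2.08 (adjusted p = 0.00111). Chromosomes 7 and 5, which hold Fgf4 and Fgfrl1, had medians of -0.07 and -0.05.

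**Figure D2:**
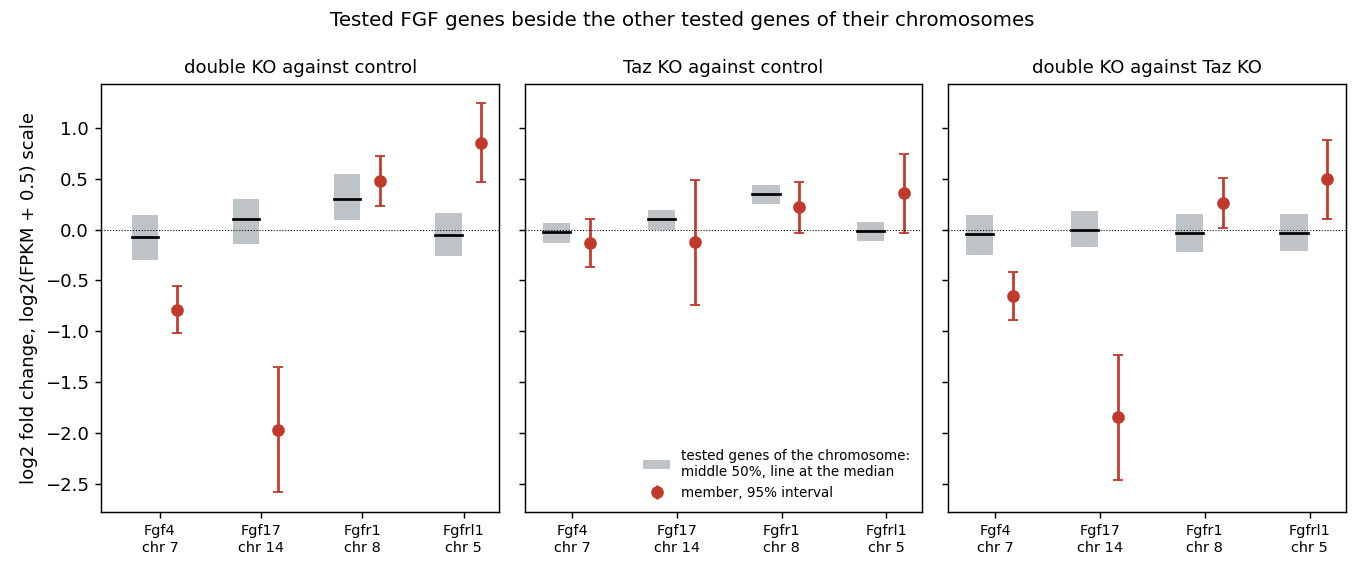
Log2 fold change on the log2(FPKM + 0.5) scale (vertical axis) of the tested FGF genes (red points, bars are 95% intervals) beside the tested genes of the same chromosome (grey box, middle 50%; black line, median) in each comparison. The grey box of chromosome 8 lies above 0 in both comparisons with control, with medians of 0.30 and 0.35, and Fgfr1 lies within it in the first and just below it in the second; Fgf4, Fgf17 and Fgfrl1 lie outside their boxes in double KO against control.

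The other receptor kinases were all below the level tested. Fgfr3, a receptor best known as a brake on bone growth, was at 0.584, 1.52 and 0.487 FPKM in double KO, 0.385, 0.485 and 0.299 in Taz KO and 0.468, 0.353 and 0.201 in control libraries. Each double KO library was above every other library, by a small margin except for library 2. Of the tested genes, 21.7% were higher without overlap against control and 14.1% against Taz KO. Those shares were not computed below the level tested. The ratio of summed reads scaled for depth was 2.57 against control (95% counting interval 2.13 to 3.11), while limma without a filter, which uses the spread between libraries, gave an adjusted p of 0.187. Against Taz KO the ratio was 2.27 (1.89 to 2.73), with an adjusted p of 0.322 in limma without a filter. On the log2(FPKM + 0.5) scale the Fgfr3 difference was 0.63 with all libraries and 0.31 without double KO library 2. The antisense gene G630022F23Rik overlaps 998 exonic bases of Fgfr3.

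Fgfr4, a receptor with a role in liver metabolism, had its highest value in library 2 of every group. It was at 0.698, 1.90 and 0.95 FPKM in double KO, 0.440, 1.52 and 0.415 in Taz KO and 0.663, 0.815 and 0.204 in control libraries, so the groups overlapped (adjusted p = 0.380 for double KO against control without a filter). Fgfr2, which in the embryo serves trophectoderm and primitive endoderm, was at 0.133, 0.0807 and 0.134 FPKM in double KO, 0.101, 0.0540 and 0.0902 in Taz KO and 0.232, 0.131 and 0.228 in control libraries. All Taz KO values of Fgfr2 were below all control values, as they were for 7.84% of the tested genes. Fgfr2 is below the level tested, where that share was not computed. The Taz KO to control ratio was 0.412 (95% counting interval 0.273 to 0.609) from 37 and 93 reads, with an adjusted p of 0.25 in limma without a filter. Double KO to control was 0.581 (0.408 to 0.821), with an adjusted p of 0.184.

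The receptor make-up was dominated by Fgfr1 in every library. Its share of the summed FPKM of the 4 kinases was 79.2 to 92.0% in double KO, 86.0 to 94.3% in Taz KO and 88.6 to 94.9% in control libraries, and the ranges overlapped. The sum was 16.8 to 19.6 FPKM in double KO, 13.7 to 14.7 in Taz KO and 11.4 to 12.7 in control libraries, without overlap. The FPKM ratio of Fgf4 to Fgfr1 was 2.92 to 4.87 in double KO, 6.39 to 8.16 in Taz KO and 8.41 to 10.6 in control libraries. These sums and ratios describe the same values as above and were not tested. Fgfr1 dominates the sum and enters the ratio, so both include the chromosome 8 difference given above. Against control 21.7% of tested genes were higher without overlap in double KO and 10.9% in Taz KO. In double KO against Taz KO it was 14.1%.

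**Figure D3:**
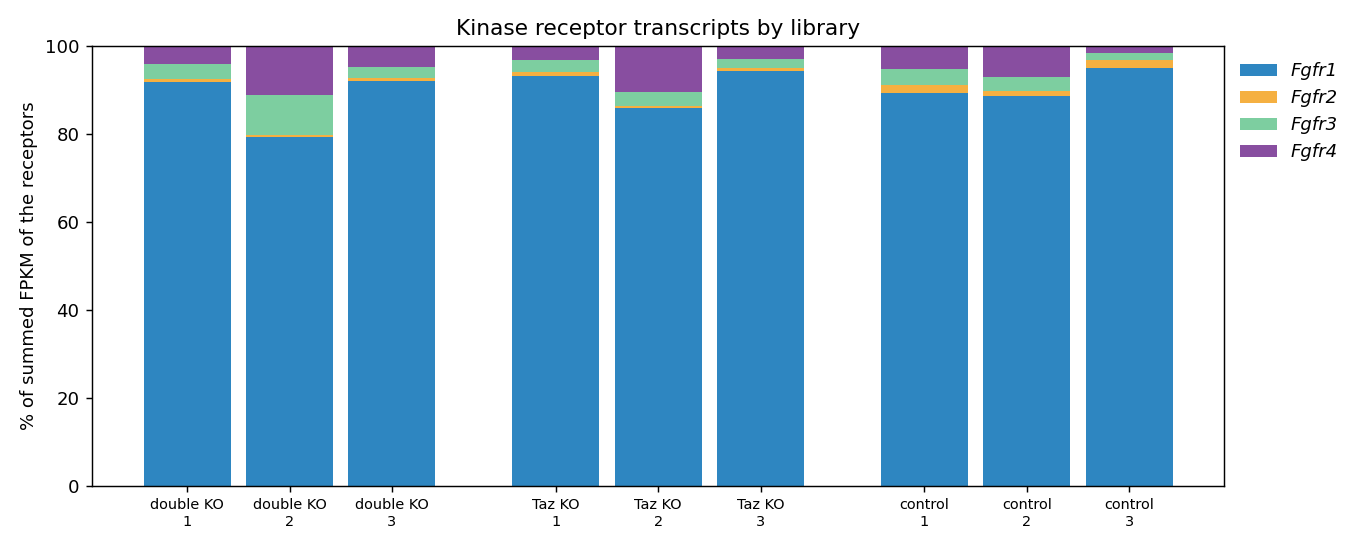
Share of each receptor kinase gene in the summed FPKM of the 4 genes (vertical axis, percent) in each double KO, Taz KO and control library. Fgfr1 takes 79.2 to 94.9% of every bar, and the Fgfr4 share is widest in library 2 of each group, at 11.3% in double KO, 10.4% in Taz KO and 7.18% in control.

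Fgfrl1, which binds FGFs and heparan sulfate but lacks a kinase domain, rose in double KO cells to 199% of control. The gene (ENSMUSG00000008090; chromosome 5, 108692382 to 108706924, plus strand) was at 5.11, 4.10 and 6.93 FPKM in double KO, 3.24, 3.63 and 3.89 in Taz KO and 2.79, 3.01 and 2.29 in control libraries. The 3 groups did not overlap, with control lowest and double KO highest. Means were 5.38 ± 1.43, 3.59 ± 0.328 and 2.70 ± 0.369 FPKM in double KO, Taz KO and control cells (SD, n = 3 each), from 118 to 361 reads. The log2 fold change was 0.86 for double KO against control (SE 0.171, adjusted p = 0.00814) and 0.36 for Taz KO against control (95% interval -0.03 to 0.75, adjusted p = 0.447). Double KO against Taz KO was 0.50 (0.11 to 0.89, adjusted p = 0.0867), with 0.0448 under the replicate block. Without double KO library 2 that difference was 0.66 (adjusted p = 0.0295), and without the 3 libraries numbered 2 it was 0.67 (adjusted p = 0.0245).

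Across the 3 comparisons the tested genes gave the following counts. All 4 tested genes passed the threshold in double KO against control, with 2 higher and 2 lower, where 25.3% of all 11674 tested genes passed (12.4% higher and 12.9% lower). All 4 were also without overlap between the groups, where 45.6% of all tested genes were (21.7% higher and 23.8% lower). Centred on chromosome medians 3 of the 4 passed, where 12.4% of genes were called higher and 12.5% lower. In Taz KO against control none passed in limma or in voom on recovered reads, and none had an unadjusted p under 0.05, where 1.28% of tested genes passed in limma (0.72% higher and 0.565% lower) and voom called 0.865% higher and 0.642% lower. Fgfr1 and Fgfrl1 were higher there without overlap, as were 10.9% of tested genes. Against Taz KO, 2 passed in double KO, both lower, where 13.9% of tested genes passed (6.42% higher and 7.45% lower). Of the 4, Fgf4 and Fgf17 were lower and Fgfrl1 higher without overlap, where 30.6% of tested genes did not overlap (14.1% higher and 16.5% lower). With centring Fgfr1 passed there too, where 7.74% of genes were called higher and 7.14% lower. With the replicate block all 4 passed in that comparison, where 16.8% of tested genes were called higher and 25.6% lower. The comparisons with control share the control libraries, and those with double KO share the double KO libraries, so their counts are not independent.

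**Figure D4:**
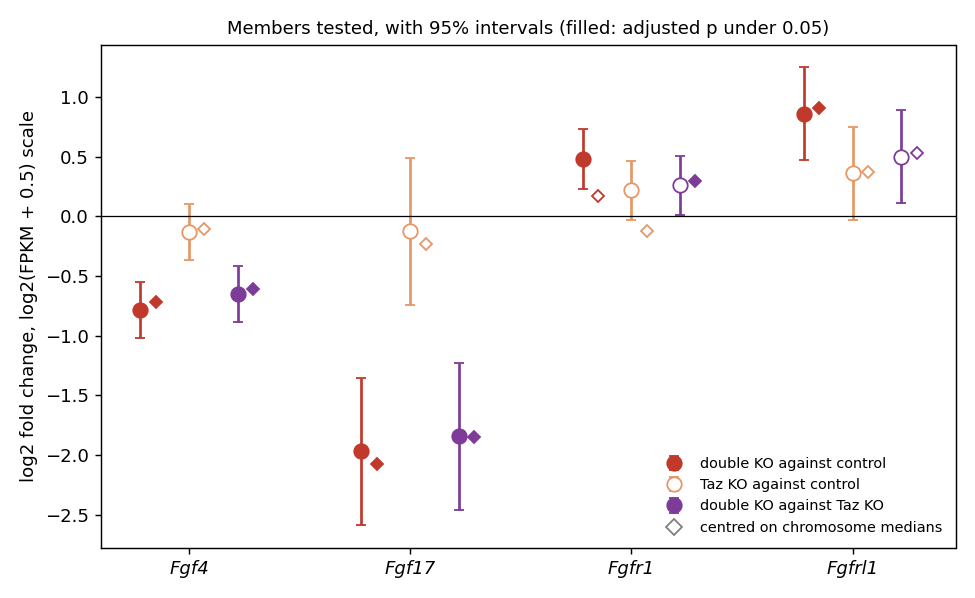
Log2 fold change on the log2(FPKM + 0.5) scale (vertical axis) of Fgf4, Fgf17, Fgfr1 and Fgfrl1 in each comparison, with 95% intervals (circles, filled where the adjusted p is under 0.05) and the value centred on chromosome medians (diamonds, filled likewise). In double KO against control Fgf4 (-0.79) and Fgf17 (-1.97) lie below 0 and Fgfr1 (0.48) and Fgfrl1 (0.86) above, and the Fgfr1 diamond (0.17) is open.

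The neighbours of Fgf4 were examined because Fgf3, Fgf4 and Fgf15 form a cluster on chromosome 7, with Fgf3 ending 2.93 kb before Fgf4. Within 500 kb on either side 16 genes were in the table and 7 were tested. Besides Fgf4 itself, 1 of these, Fgf3, fell in double KO cells against control and against Taz KO, and none rose, where 12.9% and 7.45% of all tested genes were called lower in those comparisons. The Fgf3 call against control was lost without control library 1 (adjusted p = 0.0851), double KO library 1 (0.0581) or double KO library 3 (0.0532). Against Taz KO it was lost with no filter (adjusted p = 0.0517) and with the 2 groups alone (0.0735), among other settings. Ccnd1, the cyclin D1 gene beyond Fgf15, was named after its values were seen. It was at 17.9 FPKM in double KO and 35.4 FPKM in control cells (log2 fold change -1.11, adjusted p = 0.107).

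Genes whose levels followed the tested members most closely over the 9 libraries were ranked by Pearson's r of log2(FPKM + 0.5) among 11673 other tested genes. The points are the same 9 libraries, which include the group differences, so r is a description. For Fgf4 these were Mybl2 (r = 0.997), a cell cycle transcription factor, and Polh (r = 0.994), a DNA damage bypass polymerase. Acy1, an aminoacylase (r = 0.996), and Timm9, a mitochondrial import chaperone (r = 0.993), were nearest to Fgf17. Fgfr1 was nearest to Angel2 (r = 0.986) and the calcium channel subunit gene Cacnb3 (r = 0.985). Fgfrl1 was nearest to Syne2, a nuclear envelope protein gene (r = 0.977), and the deubiquitinase gene Usp25 (r = 0.967). Among the members, r was 0.860 for Fgf4 with Fgf17 and 0.907 for Fgfr1 with Fgfrl1, while Fgf4 gave -0.903 with Fgfr1 and -0.891 with Fgfrl1.

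The rest of the pathway was described from 6 lists. Their counts in double KO against control stand beside shares of 12.4% higher and 12.9% lower over all tested genes. Those shares were 6.42% higher and 7.45% lower in double KO against Taz KO, and 0.72% and 0.565% in Taz KO against control. With the replicate block 24.2% of all tested genes were called higher and 28.1% lower in double KO against control. The block shares were 7.78% higher and 4.05% lower in Taz KO against control. In double KO against Taz KO they were 16.8% higher and 25.6% lower. A list's counts with the block are read against the block shares of the same comparison. Of 18 other FGF ligand genes 3 were tested, and in double KO against control 2 fell and none rose, with a median log2 fold change of -0.79 where that of all tested genes was -0.02. Fgf10, a ligand of branching organs such as lung and limb, was at 1.38, 2.15 and 2.06 FPKM in double KO, 4.12, 3.61 and 5.25 in Taz KO and 3.67, 3.23 and 3.74 in control libraries. Its double KO values were below all others (log2 fold change -0.79 against control, adjusted p = 0.00989, and -1.03 against Taz KO, adjusted p = 0.00664). Fgf3, a ligand of inner ear and tooth development, was at 0.473, 0.592 and 0.526 FPKM in double KO, 1.77, 1.38 and 0.959 in Taz KO and 1.68, 1.22 and 1.08 in control libraries. Here too double KO was lowest (-0.82 against control, adjusted p = 0.0191, and -0.84 against Taz KO, adjusted p = 0.0280). Fgf11, whose product stays inside the cell, differed from control by -0.17 (adjusted p = 0.659). Fgf5, a marker of the primed epiblast, was below the level tested, with 17, 10 and 32 reads in double KO, 5, 3 and 0 in Taz KO and 4, 2 and 2 in control libraries.

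Co-receptors and binding proteins had 11 tested genes of 18. Of these 4 fell and none rose in double KO against control, with a median of -0.32. With the replicate block 7 fell and 2 rose. The heparan sulfate proteoglycan gene Gpc4 was at 12.1 ± 1.61 FPKM in double KO and 25.3 ± 1.73 in control cells (log2 fold change -1.03, adjusted p = 0.000336). Gpc3, another glypican, was at 6.15 ± 0.251 and 11.7 ± 1.62 FPKM in these groups (-0.87, adjusted p = 0.00207). The syndecan gene Sdc2 was at 13.96 ± 1.29 FPKM in double KO and 20.1 ± 0.395 in control cells (-0.51, adjusted p = 0.00404). Perlecan, the basement membrane proteoglycan encoded by Hspg2, was at 13.1 ± 0.494 and 24.2 ± 4.10 FPKM (-0.85, adjusted p = 0.00491). Gpc4, Gpc3 and Sdc2 also fell against Taz KO, by 0.65, 1.19 and 0.51 on the log2 scale, while with the block 5 fell and 2 rose there. Taz KO against control called none of the list, and 2 (Gpc4 and Hspg2) lower with the block.

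Of 15 genes of heparan sulfate synthesis and editing 11 were tested, with 3 higher and 1 lower in double KO against control and a median of 0.02. With the block 4 were higher and 2 lower. Extl2, a glycosyltransferase of chain synthesis, rose by 0.65 (adjusted p = 0.0197), and Sulf2, an extracellular enzyme that removes sulfate from the chains, by 0.30 (adjusted p = 0.0473). Extl3 was 0.21 higher (adjusted p = 0.0429) but lies on chromosome 14 and had an adjusted p of 0.30 after centring. Ext2, a subunit of the chain polymerase, was lower by 0.27 (log2 difference -0.27, adjusted p = 0.0226), with an adjusted p of 0.0606 after centring. None of the 11 passed in double KO against Taz KO, where 3 rose and 1 fell with the block.

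All 21 genes of the receptor adaptors and RAS-ERK cascade were tested, and 3 rose and 1 fell in double KO against control, with a median of 0.05, a share of rises near that of all tested genes (12.4%). With the block 6 rose and 3 fell. Ksr1, a scaffold of the cascade, was at 3.36 ± 0.381 FPKM in double KO and 1.48 ± 0.141 in control cells (log2 fold change 0.96, adjusted p = 0.000850). Sos2, a guanine nucleotide exchange factor for RAS, was at 12.3 ± 1.23 and 7.12 ± 0.317 FPKM (0.74, adjusted p = 0.00155). With the block 2 genes of the list rose in Taz KO against control, and 3 rose and 5 fell in double KO against Taz KO, where 2 rose and 1 fell without it. Map2k1, which encodes MEK1, a target of the inhibitor in the medium, was 0.26 lower in double KO than in control on the log2 scale (adjusted p = 0.0379).

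FGF feedback and target genes had 13 tested genes of 15, of which 3 rose and none fell in double KO against control, with a median of -0.01. With the block 5 rose and 2 fell. Il17rd, which encodes the FGF signalling inhibitor SEF, was at 22.3 ± 2.21 FPKM in double KO, 15.1 ± 0.934 in Taz KO and 12.3 ± 0.509 in control cells. Its log2 fold change was 0.83 against control (adjusted p = 0.000539) and 0.54 against Taz KO (adjusted p = 0.00721). It lies on chromosome 14 and kept its call against control after centring (adjusted p = 0.000821). Spry1, another inhibitor of receptor kinase signalling, was at 7.03 ± 0.148 FPKM in double KO and 5.59 ± 0.0667 in control cells (0.31, adjusted p = 0.0105). Against Taz KO, Il17rd alone of the list was called, while with the block 2 rose and 3 fell; with the block Il17rd also rose in Taz KO against control (adjusted p = 0.0371). Dusp4, an ERK phosphatase gene on chromosome 8, rose by 1.07 (adjusted p = 0.0344), with 0.76 after centring (adjusted p = 0.0808).

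The 4 genes listed as upstream regulators of Fgf4 gave 2 that fell and none that rose in double KO against control, with a median of -0.25. Sox2, which with OCT4 activates the Fgf4 enhancer, was at 179 ± 8.51 FPKM in double KO, 226 ± 8.14 in Taz KO and 226 ± 14.2 in control cells (-0.33 against control, adjusted p = 0.0148). Nanog was at 213 ± 9.50 FPKM in double KO, 279 ± 34.6 in Taz KO and 264 ± 3.63 in control cells (-0.31, adjusted p = 0.0463). Against Taz KO the adjusted p was 0.0242 for Sox2 and 0.0333 for Nanog. These calls depend on the scaling: under quantile normalization Sox2 differed from control by -0.099 (adjusted p = 0.568) and Nanog by -0.044 (adjusted p = 0.694), and from Taz KO by -0.112 (adjusted p = 0.570) and -0.097 (adjusted p = 0.420). With columns scaled to the same total FPKM the adjusted p of Sox2 was 0.0661 against control and 0.0943 against Taz KO. Pou5f1, which encodes OCT4, differed from control by -0.20 (adjusted p = 0.330, and 0.0239 with the block), and Esrrb by 0.06 (adjusted p = 0.702).

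Of the 19 calls named from these lists in double KO against control, 10 held in all 9 fits that left out 1 library. They included Fgf10, Gpc4, Gpc3, Sdc2, Hspg2, Ksr1, Sos2, Spry1 and Il17rd. The other 9 (Fgf3, Extl2, Ext2, Extl3, Sulf2, Map2k1, Dusp4, Sox2 and Nanog) lost the call in at least 1 of those fits. All 9 were lost without control library 1, 8 without double KO library 3, 6 each without control library 2 and without double KO library 1, 5 without control library 3, 4 without double KO library 2 and 3 each without Taz KO library 1 and without Taz KO library 3. For double KO against Taz KO 5 of 11 calls (Fgf3, Sos2, Sox2 and Nanog among them) were lost in at least 1 such fit. Of the 19 calls, quantile normalization ended 4 (Map2k1, Dusp4, Sox2 and Nanog), scaling to the same total FPKM 3 (Ext2, Map2k1 and Sox2) and chromosome centring 3 (Ext2, Extl3 and Dusp4). The call of Dusp4, Sulf2, Nanog or Extl3 also ended with another filter, with robust moderation or with the 2 groups alone, which ended 2 or 3 calls each. Against Taz KO quantile normalization ended 3 of 11 calls, scaling to the same total 2, no filter 2 and the 2 groups alone 5.

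**Figure D5:**
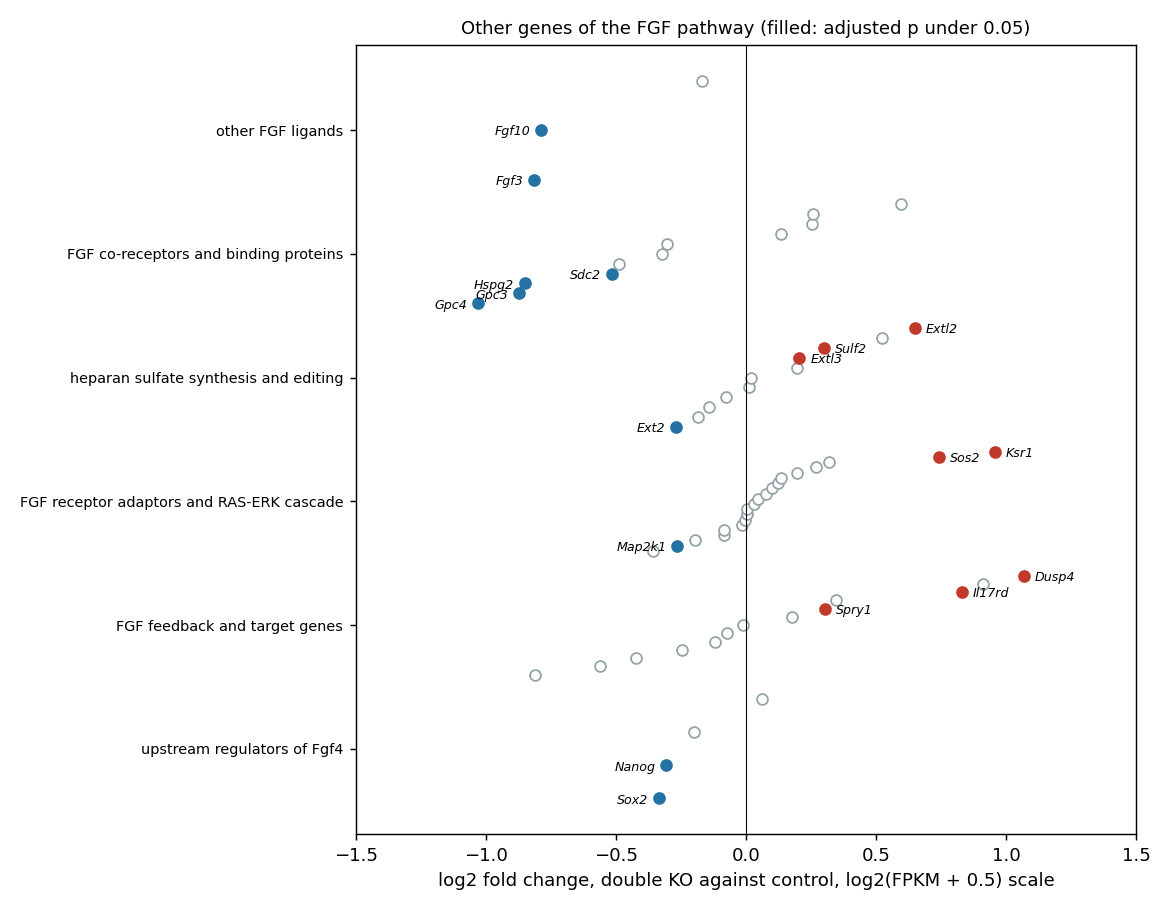
Log2 fold change of double KO against control on the log2(FPKM + 0.5) scale (horizontal axis) for tested genes of 6 FGF pathway lists (vertical axis; 1 gene of the RAS-ERK cascade is not shown), with called genes filled (red higher, blue lower) and named. The named co-receptor genes Gpc4 (-1.03), Gpc3 (-0.87), Hspg2 (-0.85) and Sdc2 (-0.51) lie below 0, and Ksr1 (0.96), Il17rd (0.83) and Sos2 (0.74) above.

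The summed levels of primitive endoderm and trophectoderm markers did not overlap between double KO and the other groups. Neither did those of the stem cell markers given above, nor the primitive endoderm sums of Taz KO and control. Of single tested genes 45.6% did not overlap between double KO and control, and 30.6% between double KO and Taz KO. The summed level of 6 primed epiblast markers overlapped, at 39.3 to 58.0 FPKM in double KO, 40.6 to 62.1 in Taz KO and 39.0 to 55.1 in control libraries. Of these 6, 4 averaged at least 1 FPKM in double KO and 5 in each other group. Fgf5 is on that list and averaged 0.377 FPKM in double KO and 0.0481 in control cells. Its double KO values lay above all others, where 21.7% of tested genes were higher without overlap against control and 14.1% against Taz KO. Fgf5 is below the level tested, where those shares were not computed. The summed level of 8 primitive endoderm markers was 105 to 132 FPKM in double KO, 155 to 174 in Taz KO and 191 to 218 in control libraries. Sparc made up most of it, at 120 ± 16.0, 162 ± 9.96 and 200 ± 13.7 FPKM in those groups, whereas the defining factors Gata6 and Sox17 averaged 0.110 to 0.202 FPKM in every group and Gata4 1.68 to 2.12. Gata6, Gata4 and Pdgfra averaged highest in double KO cells, Sox17 and Sox7 lowest, and Foxa2 and Dab2 between the other groups. The sum of 8 trophectoderm markers was 103 to 134 FPKM in double KO, 67.2 to 80.7 in Taz KO and 61.7 to 67.6 in control libraries, led by Krt8 and Tfap2c. Cdx2, which defines that lineage, averaged 0.378 FPKM in double KO, 0.0671 in Taz KO and 0.206 in control cells, and Elf5 at most 0.0133 FPKM. Eomes, also on that list, averaged 8.38, 8.23 and 6.68 FPKM in double KO, Taz KO and control cells. Gata3 went the other way, at 0.00734, 0.0120 and 0.0770 FPKM. The part of these differences in the values of the FGF genes was not tested.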

How the data were processed

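Poly(A) RNA of mouse embryonic stem cells was sequenced for 75 cycles with a directional kit, per the labels' protocols. The authors deposited an FPKM value per gene and library. TopHat2 2.1.1, HTSeq 0.6.1, DESeq2 and mm10 appear in the submitters' processing notes, with no role stated for any of them, and no annotation release or strand setting is given in the sources used here. For 24619 of 24621 detected genes the deposited FPKM came in steps of 1 read (within 0.001 reads), from which reads were recovered (the smallest whole numbers possible). The step sizes showed columns scaled by median-of-ratios size factors (largest deviation 0.00828%). Groups were compared with limma (version 3.58.1, under R 4.3.3) on log2(FPKM + 0.5), as group means over all 9 libraries with 6 residual degrees of freedom and trended variances, in 11674 genes averaging 1 FPKM or more. Tests were two-sided. Every adjusted p-value is from limma with the Benjamini-Hochberg method over all genes tested, with a threshold of 0.05. This scale understates the change of low genes. The procedure was also run on simulated data with independent noise in each library. Those data lack the shared deviation of same-numbered libraries described below, so that run says nothing about its effect. Replicates are not said to be separate cultures, so p-values measure only how far these libraries spread, and that spread may be technical. No 2 replicates of a group agreed within sampling noise.

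Same-numbered libraries of different groups deviated together: correlations of their deviations from the group means were 0.192 to 0.711 (9 pairs), against -0.688 to 0.394 between different numbers (18 pairs). That pairing rests on these values alone, as no label says what a number marks. The fit with the replicate block is printed where it changed a call or a count. Alternatives were other pseudocounts, filters and scalings, voom on recovered reads, robust moderation, the 2 groups alone, the replicate block, chromosome centring and each library left out. Gene positions are from GENCODE M21 on GRCm38, and promoter sequences from RefSeq on GRCm38.p6. The members, the pathway lists and the tests were chosen with earlier results of these data known. Genes named from a list were up to 4 with the smallest adjusted p among those called in a comparison. For each tested member the 2 genes with the highest Pearson correlation were named. The result of 1 gene is not reported here.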

Additional observations from a re-analysis of the deposited data

How the results depend on the processing

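For the tested members, 240 of the alternative values in the 3 comparisons kept their direction and their side of the threshold, 8 came to pass it, 2 no longer passed it and 2 changed sign. The number of members called in double KO against control was 4, and 3 to 5 over 21 alternatives. It was 0 in Taz KO against control in all 21. In double KO against Taz KO it was 2, with 1 under quantile normalization and 4 with the replicate block. It was 4 without the 3 libraries numbered 2 (an alternative chosen after seeing the data). With each library left out in turn it was 2 to 4, with 4 without double KO library 2. The share of all genes called was not computed for the fits that left libraries out. Their counts of members therefore have no background to be read against. Scaling the columns to the same total FPKM gave Fgfr1 an adjusted p of 0.0415 in double KO against Taz KO. The values that changed sign were both in Taz KO against control, where nothing was called. Fgf17 was at 0.042 without Taz KO library 2 (range -0.25 to 0.042 over the libraries left out), and Fgfr1 at -0.12 when centred on chromosome medians. The cause was not tested beyond the chromosome 8 values given above. The replicate block changed no other call of a member. For the genes below the level tested, 171 alternative values moved by no more than the largest SD of a group and 9 by more, with other pseudocounts. Leaving out 1 of 3 libraries cannot move a group mean by more than that SD. The fits without a library could therefore not count as moved, and most of the 171 say nothing about stability. Scaling to the same total FPKM moved the median of all genes by 0.071 in double KO against control and by 0.073 in double KO against Taz KO on the log2 scale. Quantile normalization moved it by at most 0.026. Single genes could move further, as Fgf4 did in double KO against control, from -0.79 to -0.60 with quantile normalization. Fgf8, Fgf15 and Fgfr2 rest on 39, 121 and 184 reads over all 9 libraries.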
